A study of Mus musculus with 3 samples.

Results

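Mitochondrial ribosomal protein genes were taken as the genes listed with an SRF interval whose name starts with Mrpl or Mrps followed by a digit. There were 70 of them among 16697 listed genes, 44 named for the large subunit (Mrpl) and 26 for the small subunit (Mrps), and they carried 148 of the 31850 merged regions. SRF, the serum response factor, had been immunoprecipitated from whole mouse cornea and the bound DNA sequenced. One library was made from mice with the Dstn-corn1 mutation, a loss of destrin (a protein that takes actin filaments apart), and one from wildtype mice. Both came from untreated animals of a mixed background at about 8 weeks of age. The number of corneas per library was not given in the sources used here. Growth notes name mutant mice for every library, so genotype was taken from the titles. An input library without antibody was also made. No values from it are used here, and whether it served in calling the intervals was not given. Since a genotype had 1 library, differences are without replicates and carry no p-values.

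Mitochondrial ribosomes translate the few proteins that mitochondrial DNA encodes, all of them subunits of the oxidative phosphorylation complexes. Their RNAs come from mitochondrial DNA, whereas all of their proteins are encoded in the nucleus, made in the cytosol and imported. Many of these proteins have a counterpart in the bacterial ribosome, and others are particular to mitochondria. Their nuclear promoters usually lie in CpG islands. SRF binds the CArG box and is recruited at many immediate early genes together with ternary complex factors, which belong to the ETS family and recognise a GGAA core.

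The unit throughout is peak height, the peak value deposited for a region, and the read depth behind it is unknown. Ratios are log2 of mutant over wildtype height after adding 1 to each. Heights were lower in mutant at 95.4% of all regions. Scaling the mutant library so that regions with an interval in each library had equal medians moved the median ratio of all genes by 1.03 on the log2 scale, so ratios are read against the median of all genes and not against 0. At Dstn, the mutated gene, 3 regions were listed at 0 in mutant and at heights of 11 to 35 in wildtype, which fits the titles. The assay measures binding and not transcripts, so the tissue could not be checked by its markers; 6 of 8 corneal genes looked up had an assigned interval, and Aldh3a1 and Kera were not listed.

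The promoter sequences below are those of the 5 members with the highest mean height over both libraries whose highest region lay within 1 kb of the gene start. They show only a part of these 5 promoter regions, which are 1056 to 1429 bp long. Each is the 250 bases before the RefSeq start (GRCm38.p6, the assembly of mm10), on the strand of the gene. Capitals mark the ETS core CCGGAA or its reverse complement TTCCGG. All 250 bases of each lie inside the region.
Mrps15, chr4:126046678-126046927, plus strand: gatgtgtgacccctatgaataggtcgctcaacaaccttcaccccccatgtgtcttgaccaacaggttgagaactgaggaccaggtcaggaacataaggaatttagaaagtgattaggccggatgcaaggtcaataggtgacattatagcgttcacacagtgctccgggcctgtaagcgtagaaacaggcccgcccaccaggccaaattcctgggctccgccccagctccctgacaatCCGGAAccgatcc
Mrpl34, chr8:71464676-71464925, plus strand: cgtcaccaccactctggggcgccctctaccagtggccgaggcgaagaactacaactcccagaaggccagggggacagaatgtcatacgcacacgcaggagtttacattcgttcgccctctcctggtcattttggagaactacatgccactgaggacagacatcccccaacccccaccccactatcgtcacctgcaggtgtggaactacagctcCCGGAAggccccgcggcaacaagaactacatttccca
Mrpl23, chr7:142532782-142533031, plus strand: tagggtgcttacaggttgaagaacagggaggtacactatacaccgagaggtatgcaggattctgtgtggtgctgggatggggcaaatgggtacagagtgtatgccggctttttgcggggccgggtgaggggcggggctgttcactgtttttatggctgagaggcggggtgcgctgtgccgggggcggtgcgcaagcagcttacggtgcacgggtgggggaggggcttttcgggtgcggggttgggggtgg
Mrpl39, chr16:84735245-84735494, minus strand: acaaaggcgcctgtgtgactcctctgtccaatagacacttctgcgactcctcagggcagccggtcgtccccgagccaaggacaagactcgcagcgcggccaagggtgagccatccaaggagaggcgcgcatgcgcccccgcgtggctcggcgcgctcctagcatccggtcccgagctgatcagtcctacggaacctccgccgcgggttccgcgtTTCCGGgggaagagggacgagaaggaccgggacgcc
Mrps23, chr11:88204138-88204387, plus strand: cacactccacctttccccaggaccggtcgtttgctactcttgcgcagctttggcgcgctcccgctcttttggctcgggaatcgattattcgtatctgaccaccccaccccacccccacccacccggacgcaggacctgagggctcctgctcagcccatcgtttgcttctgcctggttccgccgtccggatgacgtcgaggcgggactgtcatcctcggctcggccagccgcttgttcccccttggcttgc
A core stood close to the start in Mrps15, Mrpl34 and Mrpl39. In Mrpl23 and Mrps23 the printed bases hold none. None of the 5 printed stretches holds a CArG box. Beyond them, the regions were searched only to 50 bases past the RefSeq start.

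Shorter stretches follow for Mrps23, whose core lies past the start, and for 9 further members, chosen after their values were seen to set cores at starts that were tall in wildtype beside cores at starts that were low there. The first 8 belong to tall or middle regions, from 26 in mutant and 48 in wildtype at Mrpl3 to 27 in mutant and 129 in wildtype at Mrps23. The last 2 belong to regions below the family's wildtype median of 32.5, at 15 in mutant and 13 in wildtype for Mrps30 and at 22 in mutant and 20 in wildtype for Mrpl10. Each has 10 bases on either side of the core.
Mrps23, chr11:88204394-88204419, plus strand: ccgcttccgcTTCCGGtaacagcccg
Mrps33, chr6:39810974-39810999, minus strand: gtgagagtagTTCCGGgttgtccgcc
Mrpl21, chr19:3283040-3283065, plus strand: ctgcttccgcTTCCGGttgggactgt
Mrpl1, chr5:96210139-96210164, plus strand: tcagcacaatCCGGAAcagtcaacat
Mrps12, chr7:28741805-28741830, minus strand: aggaggaaccCCGGAAggggctggag
Mrpl30, chr1:37890449-37890474, plus strand: aaaacctttcCCGGAAccaaagaacc
Mrps14, chr1:160195211-160195236, plus strand: cagaacctgtTTCCGGtgttgtactg
Mrpl3, chr9:105053239-105053264, plus strand: gagaaacggaCCGGAAgtggcccggc
Mrps30, chr13:118387241-118387266, minus strand: tgacctcaagTTCCGGgtcgcggcgg
Mrpl10, chr11:97041478-97041503, plus strand: cgcccactatTTCCGGgcccgggttt
The same 6 letters stand at starts with very different wildtype heights. Of the printed cores, those of Mrps23, Mrpl21, Mrpl1, Mrps12 and Mrps14 lie just past the RefSeq start. That of Mrps30 runs across it. The others lie before it, that of Mrpl10 beginning 94 bases away.

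SRF regions were found at the starts of nearly all members. Of the 70 genes, 64 (91.4%) had a region whose centre lay within 1 kb of the gene start, called a promoter region here; the exact Clopper-Pearson 95% interval is 82.3 to 96.8 and covers counting error only. Among all listed genes 48.3% had one. The regions sat close to the start, with a median distance of 97.5 bp against 124 bp over all 8061 genes with a promoter region. Of the 64, 57 were centred within 250 bp (89.1%, against 73.3% over all genes). CpG islands were noted by the authors at 62 of the 64 promoter regions (96.9%), against 86.7% over all genes. Mrpl16 and Mrpl35 were the exceptions.

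Listing itself depended on an interval in at least 1 library. Of 78 protein-coding reference genes with an Mrpl or Mrps name, 71 were listed (91.0%), Mrpl58 among them under the name Ict1, against 66.1% of 21900 protein-coding genes. Each of the 70 members had an interval called in wildtype, as had 99% of all listed genes. In mutant 64 members had one (91.4%, interval 82.3 to 96.8), against 73.8% of all listed genes. The other 6 were Mrpl18, Mrpl50, Mrpl54, Mrps22, Mrps26 and Mrps35. Their highest regions reached 7 to 14 in mutant and 12 to 27 in wildtype, so they were among the lowest of the family in both libraries. At the promoter regions alone, 46 of 64 were called in mutant (71.9%, against 62.1% over all genes) and 64 in wildtype (96.1% over all genes).

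**Figure D1:**
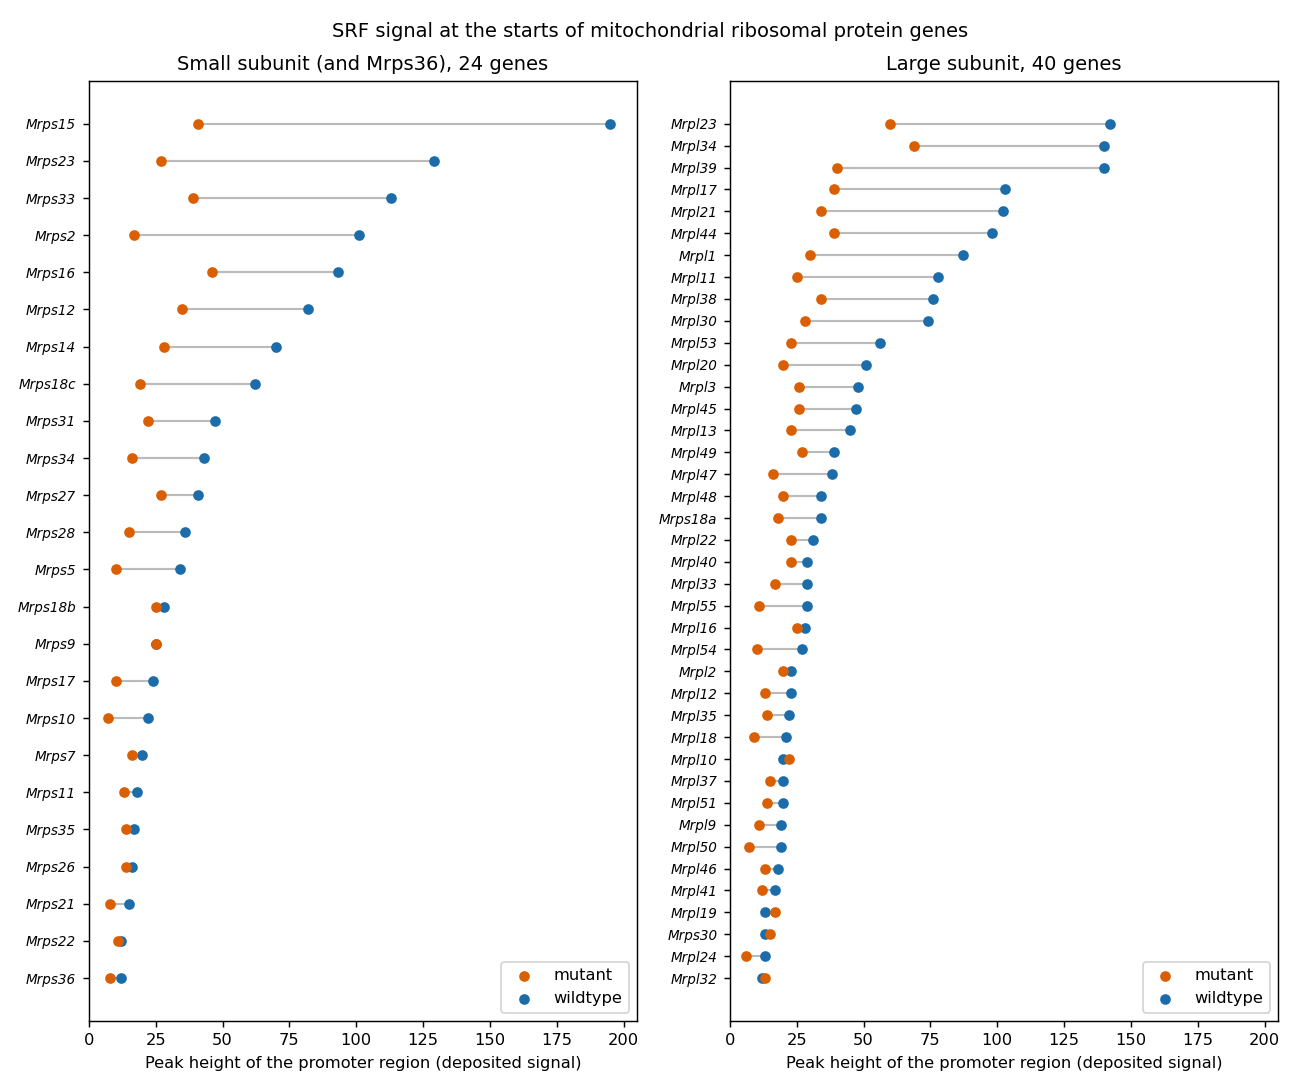
Peak height (deposited signal, x axis) of the promoter region of each of 64 genes in mutant (orange) and wildtype (blue), with a grey line between the libraries. Heights as deposited run from 6 to 69 in mutant and from 12 to 195 in wildtype, and a few genes such as Mrps15 and Mrpl23 stand far to the right of the rest in wildtype.

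Promoter regions of the family were taller than those of most genes, and very uneven among themselves. Their median height was 19.5 in mutant and 32.5 in wildtype, against 14 in mutant and 23 in wildtype over all 8061 genes with a promoter region. Heights ran from 6 to 69 in mutant and from 12 to 195 in wildtype. The order of the members was similar in both libraries, with a Spearman correlation of 0.82 across the 64 genes and 0.71 across all 8061; the points share 2 libraries and, for some genes, a region. The plot of heights by gene shows a long low tail below a few tall starts.

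Small subunit genes with a bacterial counterpart included the tallest promoter region of the family. Mrps15, which encodes a protein of the small subunit platform, had 41 in mutant and 195 in wildtype at a region on chromosome 4 (126046473 to 126047748), rank 100 of 8061 in wildtype. Mrps2 had 17 in mutant and 101 in wildtype (chromosome 2, 28467663 to 28468431). Mrps16, a gene mutated in human respiratory chain disease, had 46 in mutant and 93 in wildtype. Mrps16 was thus the tallest of the 3 in mutant and the lowest of them in wildtype. Mrps12, which encodes a protein of the decoding centre, had 35 in mutant and 82 in wildtype. Mrps14 had 28 in mutant and 70 in wildtype. Mrps18c had 19 in mutant and 62 in wildtype. Heights dropped below these, and the other 8 genes of this class lay between 7 and 25 in mutant and between 15 and 36 in wildtype.

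Of the 9 small subunit genes particular to mitochondria, Mrps23 and Mrps33 were tallest in wildtype. Mrps23 had 27 in mutant and 129 in wildtype (chromosome 11, 88203512 to 88204760). Mrps33 had 39 in mutant and 113 in wildtype (chromosome 6, 39810557 to 39811402). The next gene in wildtype was Mrps31, far below both, with 22 in mutant and 47 in wildtype. Mrps34, mutated in a human form of Leigh syndrome, had 16 in mutant and 43 in wildtype. Mrps27, which encodes a pentatricopeptide repeat protein that binds RNA, had 27 in mutant and 41 in wildtype. The remaining 4 genes had similar heights in both libraries. Mrps18b had 25 in mutant and 28 in wildtype, and Mrps22, mutated in human cardiomyopathy, 11 in mutant and 12 in wildtype. Mrps36, whose product is also placed in the oxoglutarate dehydrogenase complex and which was assigned to neither subunit, had 8 in mutant and 12 in wildtype.

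Large subunit genes with a bacterial counterpart were led by Mrpl23 and Mrpl34. Mrpl23, for a protein at the exit of the peptide tunnel, had 60 in mutant and 142 in wildtype (chromosome 7, 142532276 to 142533705). Mrpl34 had 69 in mutant and 140 in wildtype (chromosome 8, 71464239 to 71465295). No other promoter region of the family was as tall in mutant as that of Mrpl34. Mrpl17 had 39 in mutant and 103 in wildtype. Mrpl21 had 34 in mutant and 102 in wildtype. Mrpl1, for the protein of the L1 stalk next to the tRNA exit, had 30 in mutant and 87 in wildtype. The genes for the stalk where translation factors dock were spread widely. Mrpl11 had 25 in mutant and 78 in wildtype. Mrpl12 had 13 in mutant and 23 in wildtype. Mrpl10 had 22 in mutant and 20 in wildtype. Of these stalk genes Mrpl11 was tall in wildtype, whereas Mrpl10 was level in both libraries. Among the lower promoters, Mrpl2, for a protein next to the peptidyl transferase centre, had 20 in mutant and 23 in wildtype. Mrpl32, whose product is matured by the m-AAA protease, had 13 in mutant and 12 in wildtype. Mrpl24 had the lowest mutant promoter height of the family, with 6 in mutant and 13 in wildtype.

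Among large subunit genes particular to mitochondria, Mrpl39, for a protein related to threonyl-tRNA synthetases, stood apart. It had 40 in mutant and 140 in wildtype (chromosome 16, 84734877 to 84736136). Mrpl44, for a protein related to ribonuclease III, had 39 in mutant and 98 in wildtype. Mrpl38 had 34 in mutant and 76 in wildtype. These 3 were above all others of this class in both libraries. Mrpl53 had 23 in mutant and 56 in wildtype. Mrpl45, for a protein that tethers the ribosome to the inner membrane, had 26 in mutant and 47 in wildtype. Mrps18a and Mrps30 carry small subunit names although their products sit in the large subunit. Mrps18a had 18 in mutant and 34 in wildtype, and Mrps30 had 15 in mutant and 13 in wildtype.

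Grouped by subunit, the 23 small subunit promoters had median heights of 17 in mutant and 36 in wildtype, and the 40 large subunit promoters 20 in mutant and 30 in wildtype. The median log2 ratio was -1.18 (quartiles -1.52 and -0.37) over small subunit genes and -0.87 (quartiles -1.31 and -0.46) over large subunit genes. By origin, 37 promoters of genes with a bacterial counterpart had a median ratio of -1.01 and 26 of genes particular to mitochondria -0.78. The quartiles overlapped in each case, and none of these differences was tested.

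Set against other genes, the promoter regions of the family had somewhat lower mutant to wildtype ratios. Their median log2 ratio was -0.97 (quartiles -1.32 and -0.44), against -0.79 over all genes with a promoter region. With the scaling above both medians were above 0, at 0.077 and 0.23, with the family again the lower. At least 2-fold lower in mutant as deposited were 32 of 64 members (50%), against 38.4% over all genes. At least 2-fold higher in mutant were 0 of 64, against 0.323% over all genes, and with the common scaling these counts were 3 lower (4.69%, against 3.19% over all genes) and 5 higher (7.81%, against 10.9%). Of the 64 members, 37 lay below the median of all genes and 27 above it.

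This difference went with height. At promoter regions with a mean height of 40 or more, all 18 members were at least 2-fold lower in mutant as deposited, against 73.5% of 1408 genes of that class, and their median ratio was -1.44 against -1.25. In the class from 20 to under 40 the 23 members had a median of -0.83 against -0.85 over 2323 genes. In the class under 20 the 23 members had -0.49 against -0.58 over 4330 genes. Tall promoters made up 28.1% of the family and 17.5% of all genes with a promoter region. Across the 64 members ratio and mean height had a Spearman correlation of -0.59, and across all 8061 genes -0.35; the wildtype height enters both measures. The height classes were chosen with the values in view.

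**Figure D2:**
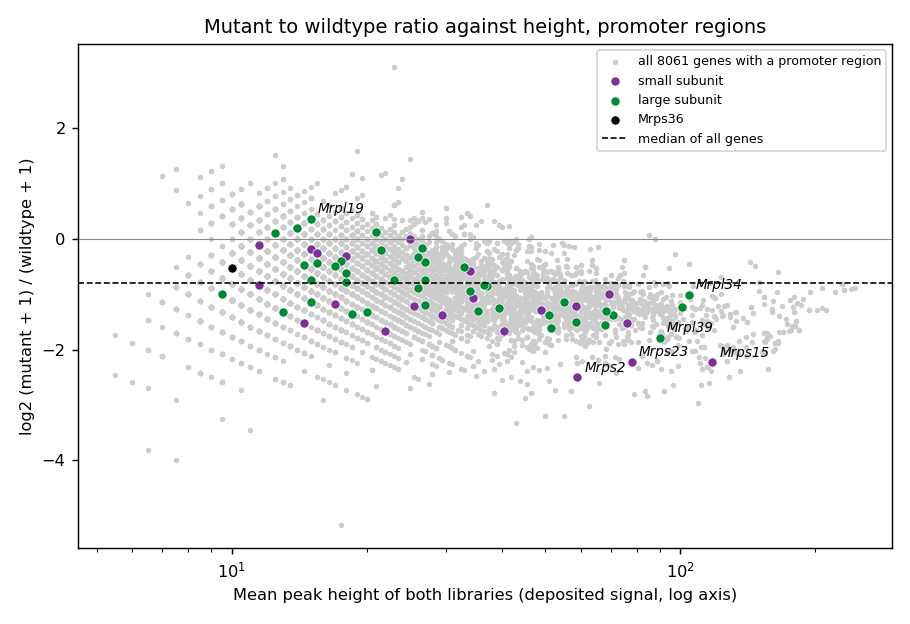
Log2 ratio of mutant to wildtype height (y axis, as deposited, 1 added to each) against the mean height of both libraries (log x axis) for promoter regions, with small subunit genes in purple, large subunit genes in green, Mrps36 in black and all 8061 genes in grey. The dashed line is the median of all genes, -0.79, and members with a mean height of 40 or more all lie below it.

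The lowest ratios of the family were those of Mrps2 at -2.50, Mrps15 at -2.22, Mrps23 at -2.22 and Mrpl39 at -1.78. Their mutant heights ran from 17 at Mrps2, below the family's mutant median of 19.5, to 40 at Mrpl39 and 41 at Mrps15, well above it. In wildtype each was at 101 or more. The highest ratios were at Mrpl19 (0.36), Mrps30 (0.19), Mrpl10 (0.13) and Mrpl32 (0.11), with Mrps9 at 0. Their wildtype heights were between 12 and 25, below the median of 28 over all regions, so that a change of a few units turns their sign. By the naming rule, which asked for at least that median in the higher library and used each gene's highest region, the lowest ratios were those 4 and Mrpl35, at 25 in mutant and 84 in wildtype at a region 19461 bp past its start. The highest under that rule were Mrps18b at -0.16, Mrpl40 at -0.32, Mrpl24 at -0.57 (24 in mutant and 36 in wildtype, 10893 bp past its start), Mrpl15 at -0.64 and Mrpl33 and Mrpl48 at -0.74 each.

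Many members also had regions away from the start. The family held 150 gene and region assignments, with up to 6 per gene (Mrpl49) and 22 genes with 1. The highest region of a member lay within 1 kb of its start in 37 of 70 genes (52.9%), against 27.3% over all listed genes. For 27 members it lay nearer to the start of another gene, a count for which no share over all genes was computed. The clearest case was Mrps17, for which the authors assigned the tallest region of the family, at 132 in mutant and 258 in wildtype. That region is centred 9363 bp past the start of Mrps17 and is nearest to Gbas, whereas the promoter region of Mrps17 had 10 in mutant and 24 in wildtype. Mrps27 had a region 8455 bp inside the gene at 32 in mutant and 101 in wildtype, against 27 in mutant and 41 in wildtype at its start. Mrpl35 and Mrps31 also had their highest region downstream, at 25 in mutant and 84 in wildtype for Mrpl35 and at 36 in mutant and 80 in wildtype for Mrps31.

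**Figure D3:**
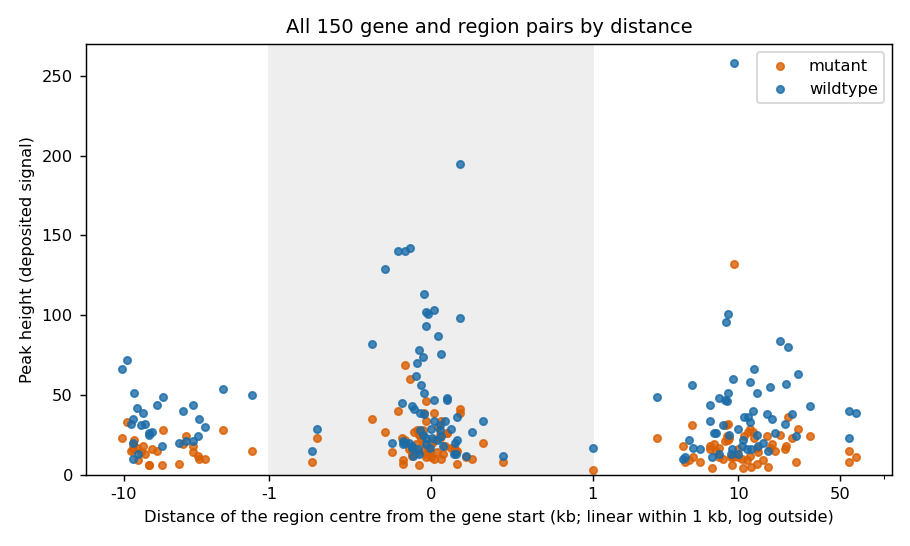
Peak height (deposited signal, y axis) of the 150 gene and region assignments against the distance of the region centre from the gene start (x axis in kb, linear within 1 kb, logarithmic outside), in mutant (orange) and wildtype (blue). The grey band marks 1 kb on either side of the start, and the tallest point outside it is the region assigned to Mrps17, at 132 in mutant and 258 in wildtype.

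Over highest regions, whatever their distance, the median log2 ratio of the 70 members was -1.16, against -1.08 over 16697 genes. At least 2-fold lower in mutant as deposited were 44 members (62.9%), near the 57.6% over all genes. At least 2-fold higher were 0, against 0.198%. With the common scaling 3 members were lower (4.29%, against 5.86% over all genes) and 2 higher (2.86%, against 4.22%). Taking the region nearest to the start instead, the median was -0.97, against -0.98 over all genes. That region was a promoter region in 91.4% of members but in 48.3% of all genes, so unlike positions are compared. At promoter regions alone the medians were -0.97 and -0.79. Of the 148 regions, 140 were lower, 7 higher and 1 equal in mutant, and 95.4% of all regions were lower. A single region was called in mutant only, a count for which no share over all regions was computed. That region lay 8634 bp before the start of Mrps34, was assigned to 6 genes, and had 16 in mutant and 10 in wildtype.

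In the 46 members with both a promoter region and a region beyond 1 kb, the promoter had the higher ratio in 29 (63.0%), against 63.7% of 5574 genes. Median heights were 20 in mutant and 34 in wildtype at the promoter and 18 in mutant and 42 in wildtype at the highest region beyond it, and the median ratio was -0.91 at the promoter and -1.13 beyond it. Mrpl19 stood at one end, with 17 in mutant and 13 in wildtype at the start and 23 in mutant and 66 in wildtype at a region 10215 bp before it. Mrps9 was alike, with 25 in both libraries at the start and 11 in mutant and 39 in wildtype at a region 64011 bp past it. Mrps34 stood at the other end, with 16 in mutant and 43 in wildtype at the start and 16 in mutant and 10 in wildtype at the region called in mutant only. Next to it came Mrps15, with 41 in mutant and 195 in wildtype at the start and 27 in mutant and 36 in wildtype at a region 11673 bp past it. Mrps2 and Mrps23 had the same order, with 19 in mutant and 40 in wildtype beyond the start of Mrps2 and 29 in mutant and 58 in wildtype beyond that of Mrps23. The low ratios at the starts of Mrps15, Mrps2 and Mrps23 were thus not shared by the highest region beyond them.

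**Figure D4:**
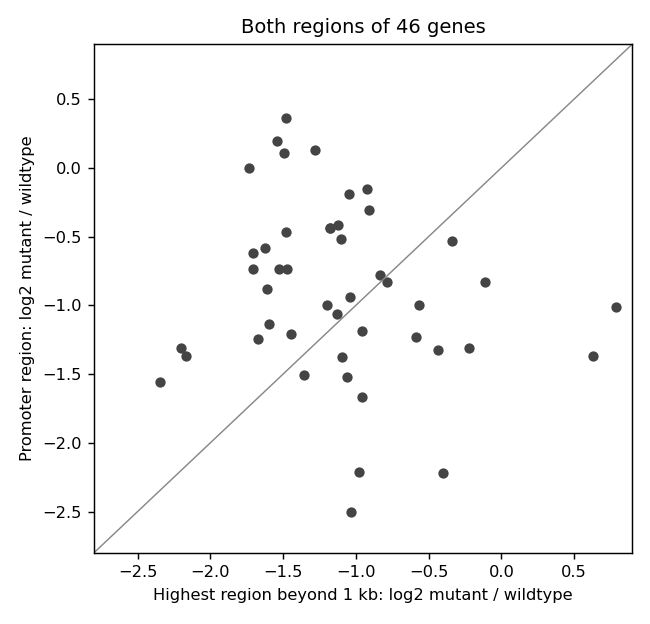
Log2 ratio of mutant to wildtype height, as deposited, at the promoter region (y axis) and at the highest region beyond 1 kb (x axis) for 46 genes, with the line of equality. Of these points 29 lie above the line, among them Mrpl19 and Mrps9, and the lowest point on the y axis is Mrps2 at -2.50.

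For 6 members no promoter region was listed. Mrpl42 had a region 25780 bp past its start at 29 in mutant and 63 in wildtype, and Mrpl28 a region 3310 bp before it at 14 in mutant and 44 in wildtype. Mrpl14 had 17 in mutant and 42 in wildtype at 8146 bp before its start, and Mrpl15 24 in mutant and 38 in wildtype at 15645 bp past its start. Mrpl43 had 16 in mutant and 27 in wildtype, and Mrpl52 18 in mutant and 21 in wildtype. All of these genes belong to the large subunit.

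Shared starts were common. Of the 64 promoter regions, 24 (37.5%) also lay within 1 kb of the start of another gene, against 27.5% over all genes, and 16 (25%) were assigned to the member alone, against 39.6%. At such a region the signal cannot be given to one gene. Mrpl46 and Mrps11 share their promoter region, at 13 in mutant and 18 in wildtype, and a further region at 22 in mutant and 51 in wildtype, and they were counted as separate members. Several partners are themselves mitochondrial. Mrps12 shares its region with Sars2, the mitochondrial seryl-tRNA synthetase gene (35 in mutant and 82 in wildtype). Mrpl47 shares one with Ndufb5, a complex I subunit gene (16 in mutant and 38 in wildtype). Mrps27 shares one with Ptcd2 (27 in mutant and 41 in wildtype). Others are not, such as Mitd1 at Mrpl30 (28 in mutant and 74 in wildtype). Further partners of this kind are Psma2, a proteasome gene, at Mrpl32 (13 in mutant and 12 in wildtype). Fau, a cytosolic ribosomal protein gene, is another, at Mrpl49 (27 in mutant and 39 in wildtype).

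Other genes of mitochondrial gene expression had promoter regions in 81.8% to 89.5% of their listed members, against 91.4% of the family and 48.3% of all listed genes. The share at least 2-fold lower in mutant as deposited was 38.4% over all genes with a promoter region. Mitochondrial ribosomal protein genes with other names had one in 5 of 6 listed genes, with a median ratio of -1.29; Aurkaip1 had 33 in mutant and 82 in wildtype and Ict1 18 in mutant and 51 in wildtype. Translation factors had one in 9 of 11, with a median of -1.10 and 5 of the 9 (55.6%) at least 2-fold lower in mutant as deposited. Among them Tsfm, an elongation factor gene, had 53 in mutant and 126 in wildtype, Gfm1 23 in mutant and 115 in wildtype, and Taco1 40 in mutant and 97 in wildtype. Mitoribosome assembly genes had one in 15 of 18, with a median of -1 and 8 (53.3%) at least 2-fold lower. Mtg1, a GTPase gene of large subunit assembly, had 12 in mutant and 79 in wildtype. Mitochondrial tRNA synthetase genes, with Gatc, Qrsl1 and Pet112 counted among them, had one in 17 of 19. Their median was -0.70, with 8 (47.1%) at least 2-fold lower. Aars2 had 47 in mutant and 136 in wildtype. Genes of mitochondrial DNA upkeep and transcription had one in 9 of 11, with a median of -0.49 and 2 (22.2%) at least 2-fold lower. Ssbp1 had 28 in mutant and 55 in wildtype. No list had a promoter region at least 2-fold higher in mutant as deposited, where 0.323% of all genes had one.

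Nuclear genes of oxidative phosphorylation had a promoter region in 56 of 74 listed genes, with median heights of 14.5 in mutant and 24 in wildtype, a median ratio of -0.89 and 21 (37.5%) at least 2-fold lower in mutant. Ndufa5 had 38 in mutant and 219 in wildtype and Atp5g2 46 in mutant and 180 in wildtype. Cytoplasmic ribosomal protein genes had one in 66 of 82, with median heights of 18.5 in mutant and 33 in wildtype, a median ratio of -0.81 and 24 (36.4%) at least 2-fold lower. Rpl22 had 72 in mutant and 246 in wildtype. Over all genes with a promoter region the median ratio was -0.79 and 38.4% were at least 2-fold lower. Of all listed genes 48.3% had a promoter region. Both lists were taken by gene name. The oxidative phosphorylation list thus counts Atp5sl, and the ribosomal list counts Rps19bp1, named for a binding protein, and leaves out Fau. Differences between these lists and the family were not tested.

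Sequence at the starts was searched in RefSeq promoters, which matched 62 of the 70 members, 57 of them with a promoter region. Those without a match were Mrpl13, Mrpl15, Mrpl19, Mrpl38, Mrpl54, Mrps28, Mrps34 and Mrps35. Both strands were read, and a core on one strand may overlap one on the other. A match is a description of letters and not of a bound site. In the 250 bases before the start the CArG box was found in 0 of 62 members, against 1.47% of all 32851 promoters, and in the window from 250 before to 50 after the start also in 0. With 1 mismatch allowed in the A and T core it was found in 4 of 62 (6.45%), against 8.59%. The tallest region of these 4 was that of Mrpl11, at 25 in mutant and 78 in wildtype, whose match is given with 10 bases on either side and the match in capitals.
Mrpl11, chr19:4962213-4962242, plus strand: ttcttaaattCCGTAATTGGtctttagttg
The other 3 were Mrpl22, Mrpl50 and Mrpl55, at 7 to 23 in mutant and 19 to 31 in wildtype.

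The ETS core CCGGAA was found in 25 of 62 members in the 250 bases before the start (40.3%), against 12% of all promoters and 28.3% of genes with a promoter region at a CpG island. In the window that adds the 50 bases after the start, chosen after seeing the data, it was found in 36 of 62 (58.1%), against 14.9% and 35.3%. Of 44 cores at members with a promoter region, 38 lay within 100 bases of the RefSeq start and 42 lay with their flanks inside the SRF region. The search covered only this longer window, and the RefSeq start lay inside the region in 53 of the 57 members. Most cores found there would thus lie inside the region in any case, and no share over all genes was computed for either count. In this longer window the 33 members with both a core and a promoter region had median heights of 23 in mutant and 47 in wildtype, and the 24 with a promoter region and no core 14.5 in mutant and 24.5 in wildtype. Over all genes these medians were 15 in mutant and 24 in wildtype with a core and 14 in mutant and 23 in wildtype without. With the 250 bases alone, 23 members with a core had 22 in mutant and 41 in wildtype, and 34 without had 16.5 in mutant and 28.5 in wildtype. The relation to height depended on the window. Before the start alone, 8 of 17 members of mean height 40 or more held a core (47.1%, against 27.2% of 1106 genes), and 6 of 20 under 20 (30%, against 25.4% of 3383 genes). In the longer window these counts were 14 of 17 (82.4%, against 35.0%) and 8 of 20 (40%, against 31.5%). Mrpl23, Mrps2 and Mrpl11 were the tall members without a core in either window. The windows follow the RefSeq start, which lay within 100 bases of the listed gene start in 58 of 62 members. At Mrpl23 it lay 85 bases before the listed start, so its longer window ended short of that start.

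**Figure D5:**
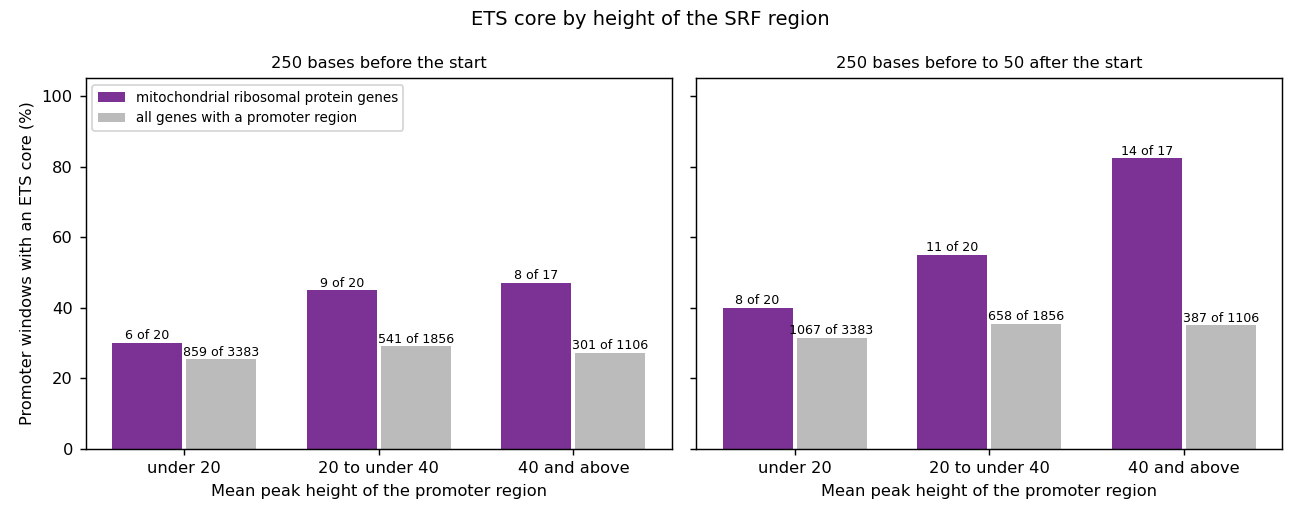
Percentage of promoters that hold an ETS core (y axis), by mean peak height of the promoter region (x axis), in the 250 bases before the RefSeq start (left) and with 50 bases after it added (right), for the members (purple) and for all genes with a promoter region (grey), with counts above the bars. On the left the members run over the classes at 30%, 45% and 47.1% and on the right at 40%, 55% and 82.4%, whereas all genes stay between 25.4% and 29.1% on the left and between 31.5% and 35.5% on the right.

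Among the other motifs searched, YY1 sites (GCCATNTT) were found before the start in 6 of 62 members (9.68%), against 3.91% of all promoters and 5.42% of genes with a promoter region at a CpG island. In the longer window they were found in 17 (27.4%), against 6.05% and 10.7%. NRF1 sites (GCGC, any 2 bases, GCGC), bound by a factor of nuclear genes for mitochondrial proteins, were found before the start in 9 (14.5%), against 4.98% and 13.6%, and in the longer window in 13 (21.0%), against 6.23% and 16.8%. The CCAAT box (CCAAT) was found before the start in 23 (37.1%), against 33.8% and 36.3%. These shares were not tested.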

How the data were processed

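Reads of SRF ChIP-seq libraries of mutant and wildtype cornea were, per the submitters' processing notes, mapped to mm10 by BWA. How intervals were called and libraries scaled was not given in the sources used here. Per the file headers, the deposited signal comprises the peak and average value of each interval or merged region and a mean peak per gene, with flags for called intervals. Gene assignments, distances and CpG islands are the authors'. Coordinates are as listed, with the base from which region starts count not stated.

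A gene was represented by its region with the highest mean of both libraries or, for promoters, the region nearest to its start within 1 kb. Each ratio is the log2 of mutant over wildtype peak value with 1 added, which understates differences of low regions. Members and lists were chosen with earlier results of these data known. Subunit and origin classes were assigned by hand from general knowledge. Named in full were the 10 highest members, the 5 lowest ratios, members sharing a region with another member, and leading genes of each list. The highest ratios were given in part without heights. Members with several regions were not all named, and they and other members were given by range or example. Promoters came from RefSeq (GRCm38.p6). The ratio and region choice were tested on simulated data. Software was pandas 2.3.3, scipy 1.17.1, numpy 2.4.6 and matplotlib 3.10.9 under Python 3.11.15. Alternatives are given in the closing section.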

Additional observations from a re-analysis of the deposited data

How the results depend on the processing

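No paired analysis was possible because there was a single library for each genotype, and for the same reason no library could be left out. Alternatives for promoter regions, single members and the longer motif window were chosen after seeing the data. The libraries' unknown scaling matters most. With both scaled to the same median, the median log2 ratio over highest regions was -0.14 with 3 members at least 2-fold lower in mutant (4.29%, against 5.86% of all genes) and 2 higher (2.86%, against 4.22%). Over promoter regions it turned to 0.077, with 3 lower (4.69%, against 3.19%) and 5 higher (7.81%, against 10.9%). Mrpl34 and Mrps16 turned to 0.049 and 0.054. The average value in place of the peak value gave -0.87 with 20 lower (28.6%, against 30.4% of all genes) over highest regions and -0.70 with 11 lower (17.2%, against 18.3%) over promoter regions. The region nearest to the start gave a median of -0.97, against -0.98 over all genes, and the mean over all regions of a gene -0.97, against -1.01. The members thus lay slightly above all genes in these settings, and below them over highest regions (-1.16, against -1.08). The nearest region was a promoter region in 91.4% of members and 48.3% of all genes, so that setting compares unlike positions. With regions assigned to a single gene, 15 of 26 members were at least 2-fold lower over highest regions (57.7%, against 59% of all genes) and 8 of 16 over promoter regions (50%, against 41.1%), fewer because fewer genes entered. With highest regions within 1 kb, 24 of 37 were (64.9%, against 45.4%), and the median log2 ratio was -1.23, against -0.90 over all such genes. Promoter regions at or above the median height of 28 gave -1.22, against -1.13 over all genes. Counting intervals only from the median height of 24 upward, 31 members had one in mutant and 60 in wildtype. The same cut served both libraries and no share over all genes was computed, so these counts show no difference from other genes. A pseudocount of 5, regions called in both libraries, the added genes with other names and the promoter distances of 5 kb and 250 bp kept the counts within 1.5 times of those reported and the sign of the medians. The ETS and YY1 shares also depended on the window searched, as given above. Where no cause is named above, the cause was not tested. Read depth was not known, and no detection limit for low regions was computed.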
